A study of Danio rerio with 18 samples.

Results

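The transcripts examined here belong to 10 zebrafish genes for enzymes that build and cleave ceramide and that lengthen its fatty acids, namely acer1, degs1, degs2, cers2a, cers2b, elovl1a, elovl1b, elovl4b, elovl6 and elovl7a. They were chosen by name, with earlier results of these libraries known, so that counts and medians over them describe the members and are no independent support for a direction. Their rows were looked up among the 31624 genes of the count table. The 10 names led to 11 rows, because 2 rows carried the name ELOVL4 (ENSDARG00000006773 and ENSDARG00000027495) and nothing in the names tells which of them is elovl4b. Both are reported by their identifiers. As elovl4b is a single gene, counts and medians over the tested rows include an ELOVL4 row outside the listed genes. The row of elovl1b was taken as the ELOVL1 row that is not elovl1a, the row of cers2a as the CERS2 row that is not cers2b, and elovl7a as the sole ELOVL7 row. Of the 11 rows, 10 passed the filter on low counts and were tested, and cers2a did not pass.

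Ceramides are sphingolipids made of a long-chain base joined to a fatty acid. Ceramide synthases join the parts, dihydroceramide desaturases place the double bond or hydroxyl group that completes the base, and ceramidases release the base again, while the ELOVL enzymes add carbons to fatty acids before they are used. In mammalian skin, ceramides with very long fatty acids form much of the barrier against water loss. The fish epidermis is a living, mucus-covered epithelium without the dead cornified layer of mammals, and roles known from mammals are named as such below.

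The larvae were of the AB strain, sampled whole after the first-feeding stage, and each of the 18 RNA-seq libraries held a pool of 5 larvae. Embryos from pooled eggs were incubated at 24 °C or 32 °C and moved to the challenge temperature at the first-feeding stage, giving the combinations 24 × 24 °C, 24 × 32 °C and 32 × 24 °C (incubation × challenge), with 3 control and 3 LPS libraries each. LPS larvae were immersed for 24 h in water with lipopolysaccharide of Pseudomonas aeruginosa, a component of the bacterial outer membrane, and control larvae in water with phosphate-buffered saline. The LPS dose is 10 mg/L in the sample labels and 10 µg/L in the methods. None of the larvae was fed. The immersion began 18 h after the first-feeding stage. Larvae incubated at 24 °C were sampled at about 171 hours post fertilisation and those incubated at 32 °C at about 96. The 32 × 24 °C larvae also went through a drop in temperature and the 24 × 32 °C larvae through a rise, unlike the 24 × 24 °C larvae. Incubation temperature, age and the drop thus cannot be told apart, nor can challenge temperature and the rise. The LPS pools were drawn from survivors, whose share differed between the temperature combinations, and the part of this in the results was not tested.

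Libraries held 1868228 to 8261920 counts, and the 24 × 24 °C groups were mostly deeper than the others. Replicate 3 of the 24 × 24 °C LPS larvae stood apart from its group: over all genes its chi-square per degree of freedom against the other 2 libraries was 22.02 and 25.27, against 2.02 to 13.2 for every other pair of replicates. Without it, edgeR still called 0 of the 10 tested rows after LPS at 24 × 24 °C. With it 6 rows lay above the controls without overlap, where 18.8% of all genes did not overlap, and without it also 6. Fewer LPS libraries make such a separation easier to reach. The share over all genes without this library was not determined, so the counts are not compared. The values without it are given beside those of single genes. Whole larvae hold all tissues, and of 21 keratinocyte markers 19 were matched and all 19 had counts in every library, including krt4, krt5, tp63 and epcam. All matched markers of the other cell types examined, such as hepatocyte (7), photoreceptor (4) and skeletal muscle (5), also had counts in every library. Detection thus does not set the epidermis apart.

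After LPS, transcripts of a ceramidase, a desaturase, a ceramide synthase and elongases were up-regulated. In larvae moved from 24 °C to 32 °C, 6 of the 10 tested rows were up-regulated and none was down-regulated, by edgeR's quasi-likelihood test with an adjusted p under 0.05 over all genes and a fold change of at least 1.5. Calls depended on the libraries of that combination: their number was 3 without control replicate 1 (acer1, degs2 and elovl1b) and 2 without control replicate 2 (acer1 and degs2). Without LPS replicate 3 elovl1a and elovl7a lost their calls, without LPS replicate 2 cers2b and without LPS replicate 1 elovl1a. Over the 18 fits that left out a library the number of calls ranged from 2 to 6. In the comparison 1.95% of all 15722 tested genes were called in either direction and 1.36% upward. The up-regulated genes were acer1, degs2, elovl1a, cers2b, elovl1b and elovl7a, with log2 fold changes from 1.07 to 3.37. Using DESeq2, the study had also listed acer1, degs2, elovl1a, elovl1b and elovl7a among the genes up-regulated there. The median log2 fold change of the 10 rows was 1.09, against 0.0017 over all tested genes. In bulk libraries, more cells that express a gene and more of its RNA per cell cannot be told apart.

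At 24 × 24 °C and at 32 × 24 °C, edgeR called none of the 10 rows after LPS exposure. The background there was 0.426% and 0.0318% of all tested genes. At an unadjusted p under 0.05, 4 of the 10 rows passed at 24 × 24 °C and 5 at 32 × 24 °C. Of all 15722 tested genes, 1073 and 846 passed that cut. DESeq2 called 1 row (acer1) at 24 × 24 °C and 0 at 32 × 24 °C. Of 8 alternative analyses at 24 × 24 °C, acer1 was called in 5, cers2b in 2 and elovl1a in 1. The study, using DESeq2, listed these genes as up-regulated at 24 × 24 °C. The medians of the 10 rows were 0.36 and 0.35 on the log2 scale. When the 3 LPS effects were averaged with equal weight, 5 of the 10 rows were up-regulated, against 1.7% of all genes called upward and 2.51% in either direction. These were acer1, degs2, elovl1a, elovl1b and cers2b, and each kept its call in the 18 fits that left out 1 library.

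**Figure D1:**
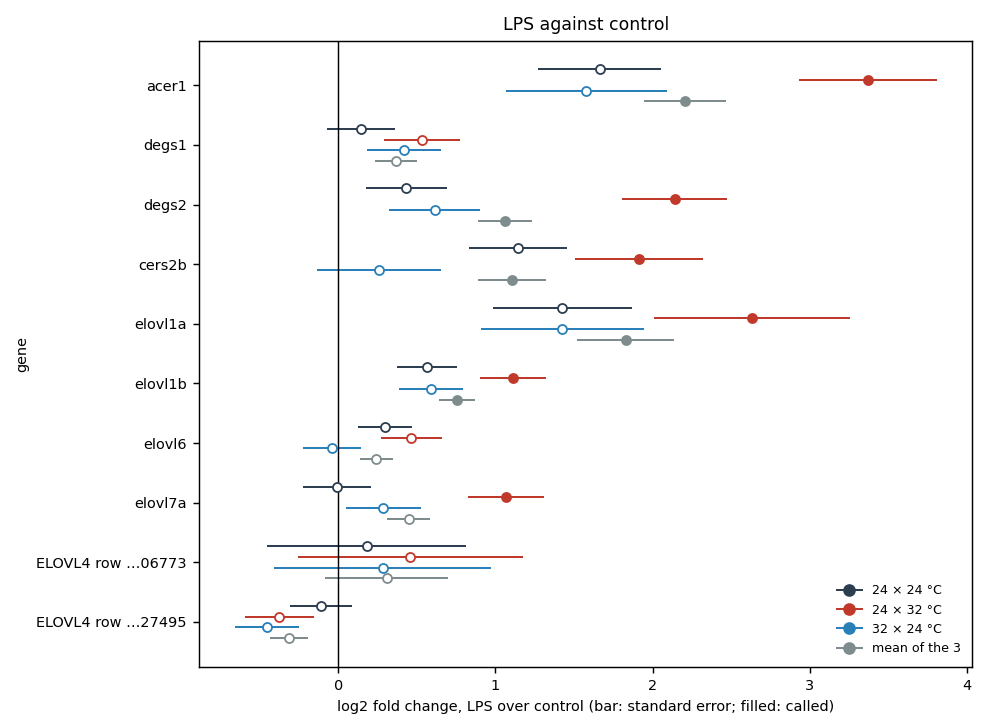
Log2 fold change of LPS over control larvae (x axis) for the 10 tested rows (y axis) at each temperature combination and for the mean of the 3, with bars for 1 standard error and filled points for calls (adjusted p under 0.05 and fold change of at least 1.5). At 24 × 32 °C, 6 points are filled (2 to 6 when a library is left out), the highest that of acer1 at 3.37, and for the mean of the 3 combinations 5 are filled.

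acer1 (ENSDARG00000010347) encodes alkaline ceramidase 1, which cleaves ceramide into a sphingoid base and a fatty acid and in mice is most active in the epidermis. At 24 × 32 °C its level was 2.61, 3.07 and 3.84 CPM (each count relative to the TMM-scaled library total) in the control libraries and 30.8, 14.6 and 53.4 CPM in the LPS libraries. At 24 × 24 °C it was 1.92, 2.24 and 4.59 CPM in controls and 10.18, 9.42 and 9.24 CPM after LPS, and at 32 × 24 °C 2.01, 3.04 and 2.41 CPM in controls and 5.16, 10.0 and 6.80 CPM after LPS. Every LPS library was thus above every control library of its own combination, and the 24 × 32 °C LPS libraries, from 14.6 to 53.4 CPM, were above all others.

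The fold change of acer1 at 24 × 32 °C was 10.4 (log2 3.37 ± 0.44, standard error; edgeR adjusted p = 0.00048), and the call held without any single library. The log2 fold changes of 1.66 ± 0.39 at 24 × 24 °C (edgeR adjusted p = 0.0703) and 1.58 ± 0.51 at 32 × 24 °C (edgeR adjusted p = 0.537) were not called. At 24 × 24 °C the value was 1.68 without the LPS library that stood apart (edgeR adjusted p = 0.157), and acer1 was called there when control replicate 3, the highest of the controls, was left out, or LPS replicate 2 or 3 of the 24 × 32 °C larvae, which enter through the shared spread. Averaged over the 3 combinations, acer1 rose by 2.20 ± 0.26 on the log2 scale (edgeR adjusted p = 4.62e-05). It rests on few reads, with 6 to 39 counts in a control library and 12 to 121 in an LPS library.

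**Figure D2:**
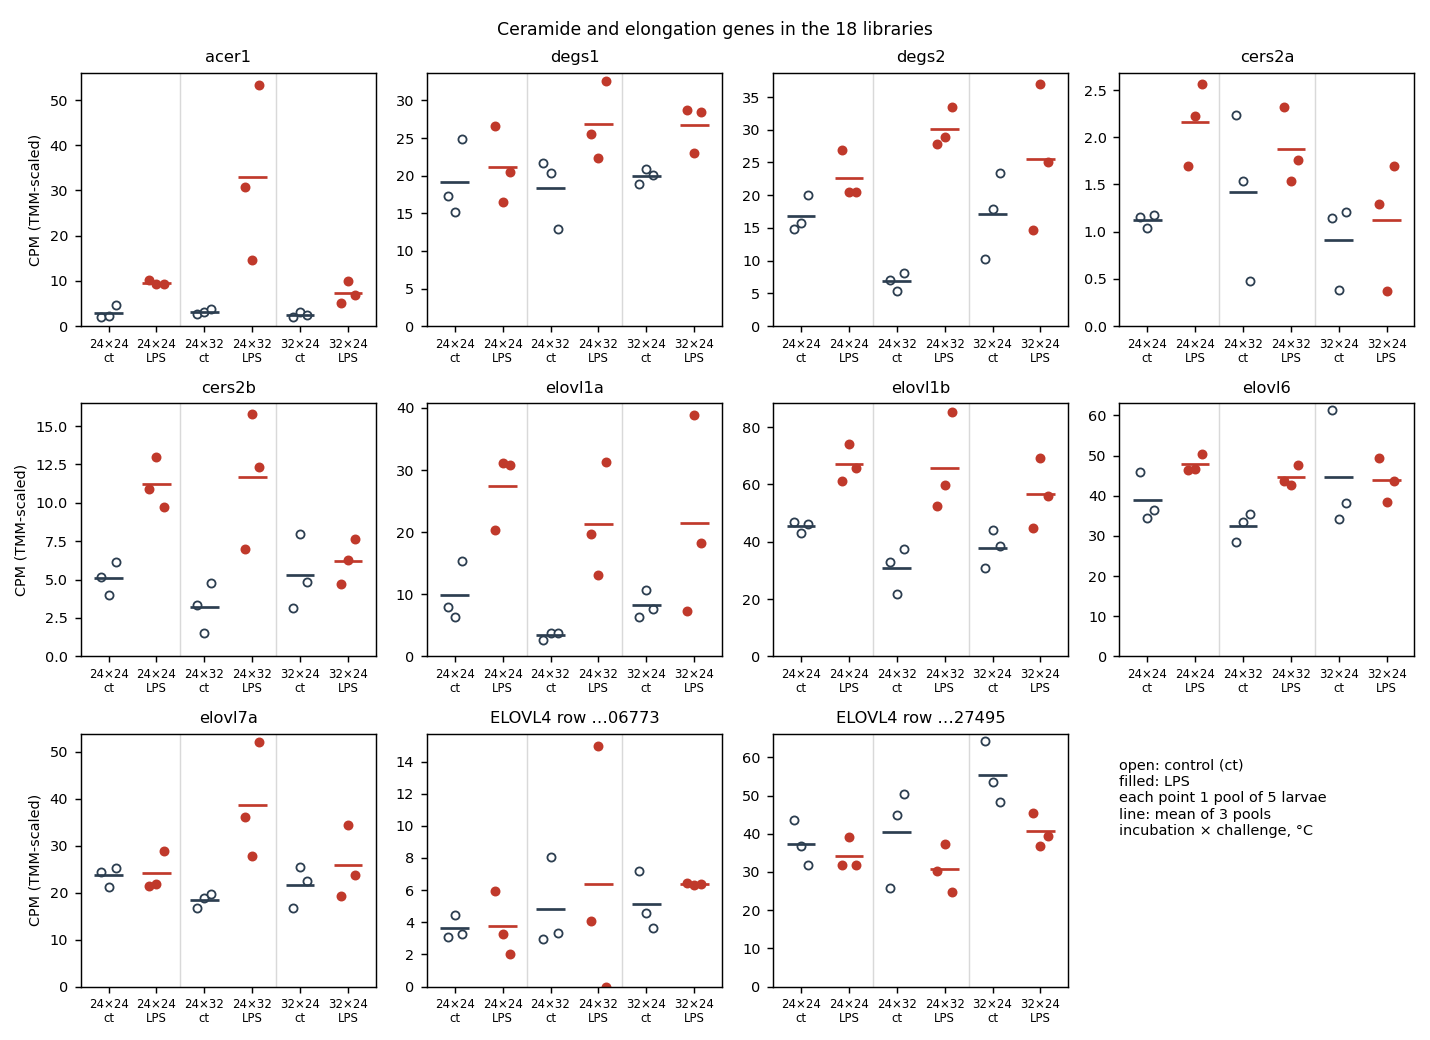
TMM-scaled CPM (y axes, each from 0) of the 11 rows in the 18 libraries by group (x axes), with open points for control and filled points for LPS libraries and a line at the mean of 3. acer1 reached 14.6 to 53.4 CPM in the LPS libraries at 24 × 32 °C and stayed at 4.59 CPM or less in all control libraries.

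degs2 (ENSDARG00000042544) encodes a dihydroceramide desaturase that in mammals also acts as the C4-hydroxylase of phytoceramides, which are abundant in skin and gut. At 24 × 32 °C it was at 7.09, 5.37 and 8.15 CPM in controls and at 27.9, 28.8 and 33.5 CPM after LPS. In larvae kept at 24 × 24 °C, control values of 14.8, 15.8 and 20.0 CPM stood against LPS values of 26.9, 20.6 and 20.5 CPM. At 32 × 24 °C the ranges overlapped, with 10.3, 17.9 and 23.3 CPM in controls and 14.6, 37.1 and 25.1 CPM after LPS. The 24 × 32 °C controls were thus the lowest of the 6 groups and the LPS larvae of the same combination had the highest mean.

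The log2 fold change of degs2 after LPS at 24 × 32 °C was 2.14 ± 0.33 (edgeR adjusted p = 0.00206), held without any single library. It was 0.43 at 24 × 24 °C and 0.61 at 32 × 24 °C, with edgeR adjusted p-values of 0.878 and 0.913, and 0.48 at 24 × 24 °C without the LPS library that stood apart. degs1 (ENSDARG00000007347), the widely expressed desaturase that converts dihydroceramide to ceramide, was not called in any comparison. It was at 13.0 to 21.7 CPM in the controls and 22.3 to 32.6 CPM in the LPS larvae at 24 × 32 °C, ranges that do not overlap, with a log2 fold change of 0.53 (edgeR adjusted p = 0.273). Its ranges did not overlap at 32 × 24 °C either (18.9 to 20.9 and 23.0 to 28.8 CPM), and they did at 24 × 24 °C (15.2 to 24.9 and 16.4 to 26.6 CPM). Of all genes, 19.9% did not overlap at 24 × 32 °C and 8.5% at 32 × 24 °C.

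Of the ceramide synthases, cers2b (ENSDARG00000058992) is a copy of CERS2, which in mammals joins very long acyl chains to the base. It was at 3.36, 1.54 and 4.80 CPM in the 24 × 32 °C controls and at 6.97, 15.8 and 12.4 CPM after LPS, and at 5.196, 4.03 and 6.11 CPM in the 24 × 24 °C controls and at 10.9, 13.0 and 9.76 CPM after LPS. In both combinations the LPS libraries were above the controls. At 32 × 24 °C the groups overlapped, at 3.15 to 7.98 CPM in controls and 4.73 to 7.65 CPM after LPS.

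The log2 fold change of cers2b was 1.92 ± 0.41 at 24 × 32 °C (edgeR adjusted p = 0.0156) and 1.14 ± 0.31 at 24 × 24 °C (edgeR adjusted p = 0.141). At 32 × 24 °C it was 0.26 ± 0.39. Without the LPS library that stood apart, the 24 × 24 °C value was 1.20 (edgeR adjusted p = 0.239). The 24 × 32 °C call was lost without control replicate 1, control replicate 2 or LPS replicate 2, with edgeR adjusted p-values of 0.0511, 0.0974 and 0.0667 and log2 fold changes of 1.96, 1.55 and 1.63. The other copy, cers2a (ENSDARG00000013704), had 1 to 13 counts per library, or 0.371 to 2.57 CPM. When no gene was filtered out, its log2 fold changes after LPS were 0.86, 0.29 and 0.22 at 24 × 24, 24 × 32 and 32 × 24 °C, with edgeR adjusted p-values of 0.998, 0.941 and 1, so that a change of cers2a was not detectable at this depth.

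ELOVL1 of mammals elongates saturated and monounsaturated acyl chains to the lengths found in skin ceramides, and the zebrafish has the copies elovl1a (ENSDARG00000099960) and elovl1b (ENSDARG00000103735). elovl1a was at 2.61, 3.84 and 3.84 CPM in the 24 × 32 °C controls and at 19.8, 13.1 and 31.3 CPM after LPS. Control larvae at 24 × 24 °C had 7.89, 6.26 and 15.4 CPM, and LPS larvae 20.4, 31.2 and 30.8 CPM. The LPS libraries were above the controls in both. At 32 × 24 °C the LPS libraries were at 7.30, 38.9 and 18.3 CPM, the first of them within the control values of 6.31, 10.6 and 7.64 CPM.

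elovl1a had a log2 fold change of 2.63 ± 0.62 at 24 × 32 °C (edgeR adjusted p = 0.0397), 1.43 ± 0.44 at 24 × 24 °C (edgeR adjusted p = 0.289) and 1.43 ± 0.52 at 32 × 24 °C (edgeR adjusted p = 0.765). The 24 × 24 °C value was 1.35 (edgeR adjusted p = 0.591) without the LPS library that stood apart. The call at 24 × 32 °C was close to the threshold. It held in 7 of the 18 fits that left out a library, and its adjusted p was highest, at 0.134, 0.125 and 0.120, without control replicates 1, 2 and 3 of that combination. Without LPS replicate 1 or 3 it was 0.0648 and 0.0987, and without any of 6 libraries of the other combinations (24 × 24 °C control 1 and LPS 2 and 3, 32 × 24 °C control 2 and 3 and LPS 3) it lay between 0.0511 and 0.0577. The log2 fold change stayed between 2.22 and 2.72 in these fits. Without the low-count filter the adjusted p was 0.087. The mean over the 3 combinations was 1.83 ± 0.31 (edgeR adjusted p = 0.00267) and held without any single library.

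elovl1b changed less in fold and from a higher count, with 57 to 433 reads per library. It was at 32.8, 21.9 and 37.4 CPM in the 24 × 32 °C controls and at 52.3, 60.0 and 85.1 CPM after LPS. The 24 × 24 °C controls had 47.0, 43.1 and 46.1 CPM and the LPS larvae 61.2, 74.1 and 65.7 CPM. For 32 × 24 °C the values were 31.0, 44.1 and 38.6 CPM in controls and 44.7, 69.3 and 56.1 CPM with LPS. The LPS libraries lay above the controls at each combination, at 32 × 24 °C by a narrow margin.

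The log2 fold change of elovl1b was 1.11 ± 0.21 at 24 × 32 °C (edgeR adjusted p = 0.00847), 0.56 ± 0.19 at 24 × 24 °C (edgeR adjusted p = 0.329) and 0.59 ± 0.20 at 32 × 24 °C (edgeR adjusted p = 0.613), and at 24 × 24 °C 0.57 (edgeR adjusted p = 0.591) without the LPS library that stood apart. At 24 × 32 °C the call was lost without control replicate 2, the lowest library, where the log2 fold change was 0.90 and the edgeR adjusted p 0.0578. elovl1b and acer1 were the rows above their controls in every LPS library of all 3 combinations. The share of all genes that did so in all 3 was not determined, so this is not read as a result about the members.

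elovl7a (ENSDARG00000069279), whose mammalian counterpart acts on saturated long-chain acyl-CoAs, was at 16.8, 18.8 and 19.7 CPM in the 24 × 32 °C controls and at 36.0, 27.7 and 52.0 CPM after LPS. Control and LPS values overlapped at 24 × 24 °C (21.2 to 25.3 and 21.5 to 28.8 CPM) and at 32 × 24 °C (16.6 to 25.5 and 19.3 to 34.5 CPM). Its log2 fold change was 1.07 ± 0.24 at 24 × 32 °C (edgeR adjusted p = 0.0233), -0.01 ± 0.22 at 24 × 24 °C and 0.29 ± 0.24 at 32 × 24 °C. The call was lost without any of the 3 control libraries of that combination (edgeR adjusted p = 0.0887, 0.0876 and 0.0705) and without LPS replicate 3, the highest library (log2 fold change 0.77, edgeR adjusted p = 0.0941). It was also lost with counts thinned to the smallest library (edgeR adjusted p = 0.104).

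The other elongases were not called. elovl6 (ENSDARG00000004402), which in mammals extends palmitate to stearate, was at 28.4, 33.4 and 35.5 CPM in the 24 × 32 °C controls and at 43.6, 42.7 and 47.6 CPM after LPS. These ranges did not overlap, and the log2 fold change was 0.47 (edgeR adjusted p = 0.223). The ELOVL4 enzyme of mammals makes the ultra-long fatty acids of skin acylceramides and of the retina. Its row ENSDARG00000027495 lay within 24.7 to 64.2 CPM in all libraries, with log2 fold changes after LPS of -0.11, -0.38 and -0.45 at 24 × 24, 24 × 32 and 32 × 24 °C, and it was the only tested row with a negative value in all 3. Row ENSDARG00000006773 varied from 0 to 14.99 CPM among the 3 LPS libraries at 24 × 32 °C alone and allows no statement. Counting the rows without overlap between LPS and control, 8 were higher and 0 lower at 24 × 32 °C, where 19.9% of all genes did not overlap. There were 6 higher and 0 lower at 24 × 24 °C (18.8% of all genes), and 3 higher and 1 lower at 32 × 24 °C (8.5% of all genes).

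In warmed controls degs2 was the only row called by edgeR, and the call depended on single libraries. In controls moved from 24 °C to 32 °C, degs2 was 2.48-fold below the controls kept at 24 °C (log2 -1.31 ± 0.33, edgeR adjusted p = 0.0174), at 5.37 to 8.15 against 14.8 to 20.0 CPM. It was 1 of 10 rows called, where 6.21% of all genes were called and 3.2% downward, so this single call is not read as a result about the members. elovl1a (log2 -1.55 ± 0.62, edgeR adjusted p = 0.145), elovl1b (-0.57 ± 0.20, edgeR adjusted p = 0.089) and elovl7a (-0.36 ± 0.23, edgeR adjusted p = 0.375) were not called, although their warmed controls were below the 24 °C controls without overlap. DESeq2 called degs2 and elovl1a. A non-overlap was found for 33.3% of all genes in this comparison, so that of these rows is not read as a result about the members either. acer1 was at 0.05 ± 0.51, with a 95% interval from -1.02 to 1.12. The degs2 call was lost without control replicate 3 at 24 × 24 °C (log2 -1.17, edgeR adjusted p = 0.0794), control replicate 1 at 24 × 32 °C (-1.36, 0.0589) or control replicate 2 at 24 × 32 °C (-1.17, 0.0838), and with counts thinned to the smallest library (edgeR adjusted p = 0.0689). The 24 × 32 °C controls are also the reference of the LPS effect at that combination, so these results share 3 libraries.

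Among LPS larvae, acer1 was 3.38-fold higher at 24 × 32 °C than at 24 × 24 °C (log2 1.76 ± 0.35, edgeR adjusted p = 0.00684), 1 of 10 rows called, where 3.09% of all genes were called and 1.62% upward. Without the 24 × 24 °C LPS library that stood apart the value was 1.72 (edgeR adjusted p = 0.0279), and without LPS replicate 3 at 24 × 32 °C, the highest library, it was 1.19 (edgeR adjusted p = 0.0524). elovl7a was at 0.71 ± 0.23 (edgeR adjusted p = 0.0803) and was called without LPS replicate 2 at 24 × 32 °C (edgeR adjusted p = 0.0328). For degs2, elovl1a, elovl1b and cers2b, the log2 differences between the LPS groups were 0.39, -0.35, -0.02 and 0.07, and 0.33, -0.28, -0.05 and -0.01 without the library that stood apart. The 95% interval of elovl1b ran from -0.43 to 0.38 and that of elovl1a from -1.31 to 0.62, so that these data allow a difference of elovl1a in either direction.

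No row was called between the 32 × 24 °C and the 24 × 24 °C larvae. edgeR called 0 of 10 in controls (background 0.49%) and 0 of 10 in LPS larvae (background 0.254%). At an unadjusted p under 0.05 there was 1 row in each, ENSDARG00000027495 of ELOVL4 in controls (log2 0.58 ± 0.20, edgeR adjusted p = 0.201) and cers2b in LPS larvae (-0.87 ± 0.35, edgeR adjusted p = 0.418). Of all 15722 tested genes, 1993 passed that cut in controls and 1438 in LPS larvae, so these single rows are not read as a result. DESeq2 called 0 in both. Without overlap, ENSDARG00000027495 was higher in the 32 × 24 °C controls, where 20.8% of all genes did not overlap. In LPS larvae ENSDARG00000006773 was higher and cers2b lower at 32 × 24 °C without overlap (16.2% of all genes).

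**Figure D3:**
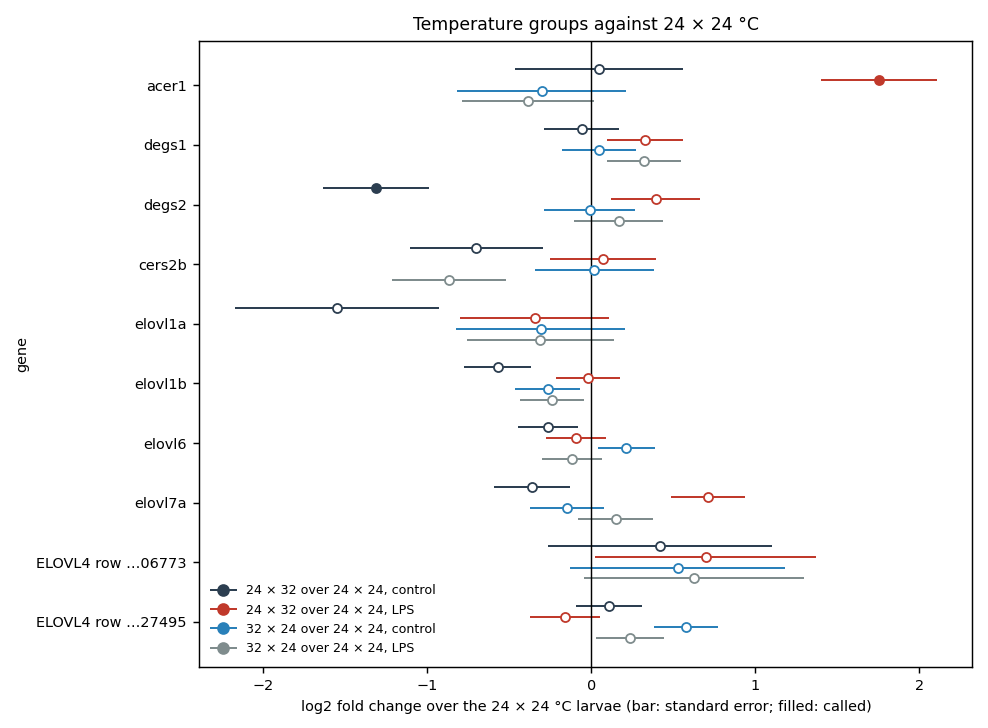
Log2 fold change of 24 × 32 °C and 32 × 24 °C larvae over 24 × 24 °C larvae (x axis) for the 10 tested rows (y axis), in controls and in LPS larvae, with bars for 1 standard error and filled points for calls. Filled points are degs2 in controls (-1.31) and acer1 in LPS larvae (1.76), both at 24 × 32 °C.

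Whether the LPS effect itself differed between combinations was tested as an interaction. For challenge temperature (24 × 32 °C minus 24 × 24 °C), edgeR called 0 of the 10 rows, where 0.00636% of all genes were called. An unadjusted p under 0.05 was found for 3 of the 10 rows and for 1186 of all 15722 tested genes. The differences in log2 fold change were 1.71 ± 0.43 for degs2 (edgeR adjusted p = 0.298), 1.71 ± 0.61 for acer1 (edgeR adjusted p = 0.544) and 1.08 ± 0.32 for elovl7a (edgeR adjusted p = 0.447). DESeq2 gave an adjusted p for 3 rows (elovl1b, elovl6 and ENSDARG00000027495) and called 0. Without the LPS library that stood apart, the differences were 1.64 for degs2, 1.68 for acer1 and 1.18 for elovl7a, with edgeR adjusted p-values of 0.582, 0.813 and 0.636. With only the 12 libraries of these combinations, degs2 was called (edgeR adjusted p = 0.0292). For 32 × 24 °C minus 24 × 24 °C, edgeR and DESeq2 called 0 rows, and 0% of all genes were called. This contrast holds incubation temperature, age and the temperature drop together. None of the rows had an unadjusted p under 0.05, against 404 of all 15722 tested genes. There the difference for acer1 was -0.08 with a 95% interval from -1.51 to 1.35.

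Few other enzymes of the same pathways were called, and a single call is not read as a result about its list. Over all tested genes, 1.36% were called upward after LPS at 24 × 32 °C and 1.7% in the mean of the 3 combinations. Of 16 further tested genes of ceramide synthesis, 1 was up-regulated after LPS at 24 × 32 °C and 0 down-regulated, with a list median of 0.49 on the log2 scale against 0.0017 over all genes. This was fa2h, the fatty acid 2-hydroxylase that makes the hydroxylated acyl chains of skin and myelin sphingolipids in mammals. It was at 12.4 ± 3.15 CPM (SD, n = 3) in controls and 41.2 ± 9.81 CPM (SD, n = 3) after LPS, a log2 fold change of 1.77 ± 0.29 (edgeR adjusted p = 0.00349) that held without any single library. With DESeq2, the study also had fa2h among the genes up-regulated there. Averaged over the combinations, 2 of the 16 were up-regulated, fa2h (0.90 ± 0.15, edgeR adjusted p = 0.00153) and the synthase cers5 (0.61 ± 0.13, edgeR adjusted p = 0.0108). cers5 was called in 14 of the 18 fits that left out a library. Its log2 fold change was 0.58 without control replicate 2 and 0.50 without LPS replicate 3 at 24 × 32 °C, and 0.56 without control replicate 1 and 0.57 without LPS replicate 2 at 32 × 24 °C, below the 1.5-fold threshold. After thinning its edgeR adjusted p was 0.0785. cers3a and cers3b, copies of the synthase of ultra-long skin ceramides in mammals, were at 0.52 ± 0.62 and 0.77 ± 0.46 after LPS at 24 × 32 °C and were not called.

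Among 17 tested genes of ceramide use and breakdown, 1 was up-regulated after LPS at 24 × 32 °C, where 1.36% of all genes were called upward. This was the CERT1 row ENSDARG00000024325 of the ceramide transfer protein (log2 1.21 ± 0.30, edgeR adjusted p = 0.0379, held in 10 of 18 fits that left out a library). After thinning its log2 fold change was 0.96 (edgeR adjusted p = 0.409). The list median was 0.08, and this single call is not read as a result about the list. Among 9 further elongation genes, 0 were called by edgeR at 24 × 32 °C, and the median was 0.38. An unadjusted p under 0.05 was found for 4 of the 9 and for 2637 of all 15722 tested genes. In the mean of the 3 combinations 1 of the 9 was up-regulated, where 1.7% of all genes were called upward. This was hsd17b12a, a copy of the 3-ketoacyl-CoA reductase that acts after the ELOVL enzymes in each elongation cycle. Its controls had 50.3 ± 12.1, 50.7 ± 3.49 and 53.7 ± 13.0 CPM at 24 × 24, 24 × 32 and 32 × 24 °C, and its LPS larvae 106.4 ± 20.6, 139.1 ± 57.3 and 115.1 ± 66.2 CPM (SD, n = 3 each). The mean log2 fold change was 1.21 ± 0.22 (edgeR adjusted p = 0.00556). With DESeq2, the study had hsd17b12a among its up-regulated genes at 24 × 24 °C and at 24 × 32 °C. It also reported fatty acid elongation as an enriched pathway at 24 × 32 °C, with hsd17b12a, hadhaa, elovl7a and elovl1b. The elongases of polyunsaturated fatty acids, elovl5 (mean 1.08 ± 0.32, edgeR adjusted p = 0.0637) and elovl2 (0.47 ± 0.44, edgeR adjusted p = 0.714), were not called.

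In the warmed controls 1 of 16 further genes of ceramide synthesis and 1 of 9 of elongation fell. Over all tested genes 6.21% were called there and 3.2% downward, so these single calls are not read as a result about the lists. The first was sptlc3 of the serine palmitoyltransferase that starts ceramide synthesis (log2 -1.32 ± 0.41, edgeR adjusted p = 0.0496, held in 6 of 18 fits that left out a library). After thinning its edgeR adjusted p was 0.387. The second was hsd17b12b (-1.34 ± 0.22, edgeR adjusted p = 0.000878, held in all 18). Of 11 genes of fatty acid synthesis and desaturation, 0 rose and 1 fell after LPS at 24 × 32 °C, where 1.95% of all genes were called. This was the acyl-CoA synthetase acsl1a (-0.66 ± 0.16, edgeR adjusted p = 0.0336), and the list median was 0.14. It is likewise not read as a result about the list. The acsl1a call was lost with the libraries of the comparison alone (edgeR adjusted p = 0.0884), after thinning (0.207) and in 4 of the 18 fits that left out a library. These were, at 24 × 32 °C, the fits without the control replicates 2 and 3 (edgeR adjusted p = 0.114 and 0.119) and those without the LPS replicates 1 and 2 (0.0881 and 0.0884). Against 1.36% of all genes called upward at 24 × 32 °C, 3 of 11 genes of the epidermal lipid barrier rose and 0 fell, with a median of 0.87. These were abca12, which carries lipids into lamellar granules in mammalian skin (1.12 ± 0.25, edgeR adjusted p = 0.0223), the epidermal transcription factor grhl3 (1.45 ± 0.36, edgeR adjusted p = 0.0403, held in 9 of 18 fits that left out a library) and the protease matriptase gene st14a (1.18 ± 0.23, edgeR adjusted p = 0.0124). Without control replicates 2 and 3 of that combination in turn, the edgeR adjusted p was 0.0887 and 0.104 for abca12 and 0.0566 and 0.055 for st14a, and without LPS replicate 3 it was 0.0515 for abca12. After thinning it was 0.0705 for grhl3. In the mean of the 3 combinations 3 of the 11 barrier genes rose and 0 fell, where 1.7% of all genes were called upward. Among them was tgm1, the transglutaminase of the cornified envelope in mammals, up-regulated by 2.02 ± 0.37 (edgeR adjusted p = 0.0046). Mean values of the other called genes are not given. With DESeq2, the study listed tgm1 and st14a as up-regulated at 24 × 24 °C.

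**Figure D4:**
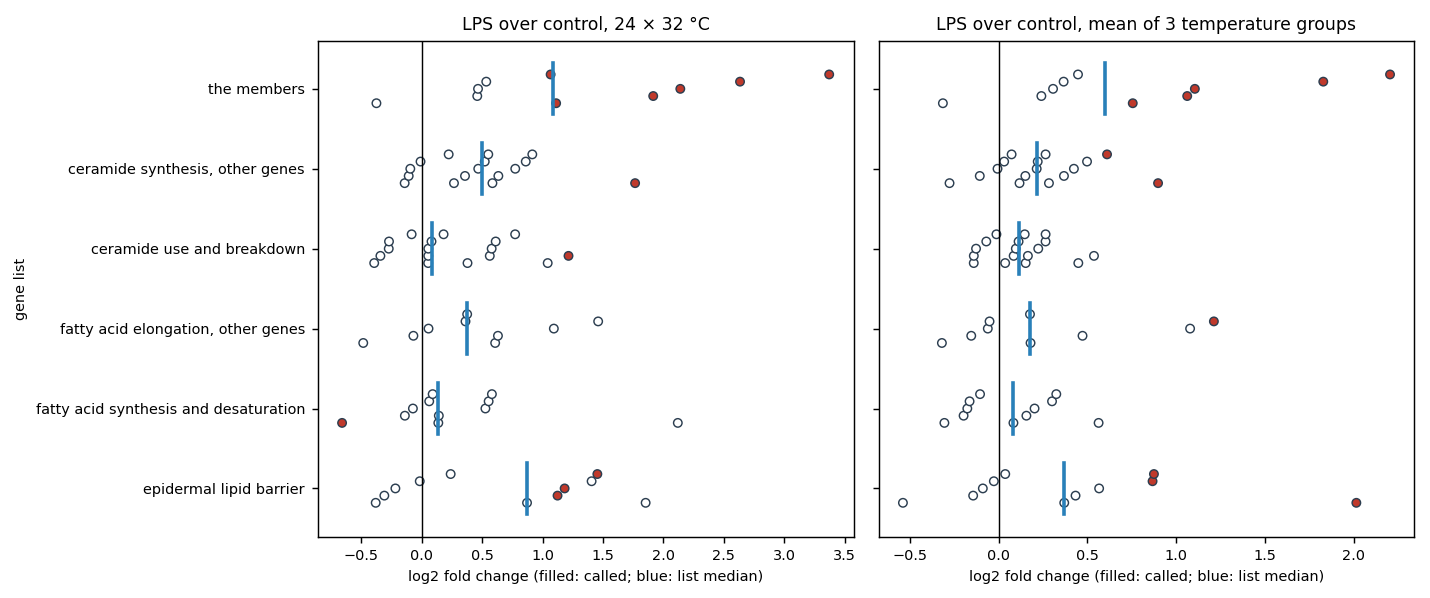
Log2 fold change of LPS over control (x axes) for the tested genes of each list (y axis) at 24 × 32 °C (left) and for the mean of the 3 combinations (right), with 1 point per gene, filled where called, and a blue line at the list median. At 24 × 32 °C the median of the 10 tested rows, both ELOVL4 rows included, lies at 1.09 and those of the other lists between 0.08 and 0.87.

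The patterns most like those of acer1, degs2 and elovl1a were sought among 13245 other tested genes by the root mean square difference of log2 CPM, each gene centred on its own mean, over the 18 libraries. Closest to degs2 were lsr (0.26), fa2h (0.26) and pitpnaa (0.27), where degs2 itself varied around its mean by 0.73. Closest to elovl1a were bin2b (0.38), the claudin gene cldnb (0.44) and si:dkey-25e12.3 (0.47), with elovl1a itself at 1.08. Closest to acer1 were BBOX1 (0.57), tnfrsf11b (0.60) and the claudin gene cldne (0.62), with acer1 itself at 1.23.

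The keratinocyte markers moved in both directions after LPS. At 24 × 32 °C, 11 of the 19 had a positive and 8 a negative log2 fold change, with a median of 0.30, against medians of -0.39 at 24 × 24 °C and -0.13 at 32 × 24 °C. Their summed level was 17490 to 24330 CPM in the 24 × 32 °C controls and 9751 to 13870 CPM after LPS, without overlap. It was 11310 to 14560 against 5604 to 11400 CPM at 24 × 24 °C and 12700 to 16080 against 8593 to 11930 CPM at 32 × 24 °C. At 24 × 32 °C, 2 of the 19 markers rose after LPS, cldne and lye, and 3 fell, krt5, krt91 and icn2. There 1.95% of all genes were called in either direction. Averaged over the combinations, 4 rose (lye, cldne, cldni, evpla) and 6 fell (krt5, icn2, cyt1l, krt91, anxa1c, krt4), where 2.51% of all genes were called. The 4 goblet cell markers summed to 54.2 to 92.9 CPM in the 24 × 32 °C controls and 24.4 to 39.6 CPM after LPS. Their sums were also lower after LPS at 24 × 24 °C (90.8 to 180.9 CPM in controls, 33.1 to 45.2 CPM with LPS). The same held at 32 × 24 °C (72.5 to 248.9 CPM in controls, 27.1 to 64.8 CPM with LPS). The part of changes in epidermal cell numbers in the results was not tested.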

How the data were processed

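Whole-larva RNA-seq of 18 libraries in 6 groups of 3 was used. Per the labels and the methods, adapters were removed by cutadapt 1.12, alignment to GRCz10 used TopHat2 2.1.0 with Ensembl release 86, and the authors deposited unnormalised gene counts made by HTSeq 0.6.1p1. For strand, the setting is not stated in any source used, and reads of overlapping or highly similar genes, such as the a and b copies, may be misassigned. No transcript lengths were used, so levels are not compared between genes. The table holds 31624 genes, and gene names came from a gene table and from names in the study's supplementary tables.

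The main analysis was run with edgeR 4.0.16 in R 4.3.3 (filterByExpr with minimum count 10 and minimum total count 15, which kept 15722 genes; TMM; robust quasi-likelihood fit of 6 group means; Benjamini-Hochberg adjustment over all genes tested). A gene was called at a fold change of 1.5 or more with an adjusted p under 0.05. CPM values are TMM-scaled, and log2 CPM used a prior count of 2. The members and lists were chosen with earlier results of these data known. Named genes were the members, 7 genes chosen from the pathway lists, up to 3 called genes per list and comparison, and the 3 nearest patterns of 3 members. Alternatives were DESeq2 1.42.0, its size factors, no low-count filter, the libraries of a comparison alone, a replicate block, thinning to the smallest library, no fold change threshold and each library left out. On simulated data at the 24 × 32 °C depth, 10.4%, 47.8% and 81.8% of genes changed 1.5-, 2- and 4-fold were called in the right direction. The changed genes were drawn at random from all tested genes, so these shares are not those of low-count members such as acer1 and cers2b. A gene changed 1.5-fold also had to reach an estimated fold change of 1.5 to be called. Of the 15453 genes in that fit, those left unchanged gave 0 false calls. The simulated libraries were drawn independently and none was made to stand apart, so false calls in the real libraries cannot be read from this. The labels do not say whether libraries of a group came from separate cultures. Per the methods, the experiment was done 3 times with broodstock drawn at random, but the repeat behind each library is not stated. The p-values thus measure the spread between these pools.

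Replicate numbers are shared by all groups. Deviations from the group mean of same-numbered LPS and control libraries had correlations of 0.559, 0.28 and 0.195 at 32 × 24 °C. They were 0.117, -0.1 and 0.0175 at 24 × 24 °C and -0.0317, 0.182 and 0.16 at 24 × 32 °C. Same-numbered controls of 32 × 24 °C and 24 × 24 °C had 0.28, -0.121 and 0.203. Libraries of different numbers were not compared, so these values cannot tell whether the numbers mark pairs. The main fit used no pairing.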

Additional observations from a re-analysis of the deposited data

How the results depend on the processing

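After LPS at 24 × 24 °C, the count of called rows moved from 0 to 1 with DESeq2, 1 without the low-count filter, 2 with the libraries of the comparison alone, and 1 and 3 with a replicate block on all 18 and on the 6 libraries. After LPS at 24 × 32 °C it was 6 and moved by over 1.5 times only when single libraries were left out. For controls at 24 × 32 °C over 24 × 24 °C it moved from 1 to 2 with DESeq2, 2 with the libraries of the comparison alone, 3 with a replicate block on them and 0 after thinning. For LPS larvae of the same combinations it moved from 1 to 0 with the libraries of the comparison alone. The interaction with challenge temperature moved from 0 to 1 with the libraries of the comparison alone and to 1 with a replicate block on them. The share of all genes called is not given for these alternatives or for the fits that left out a library. Whether the members moved more than other genes can thus not be read from these counts. The causes were not tested.

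Leaving out each of the 18 libraries gave 0 to 1 calls after LPS at 24 × 24 °C, 2 to 6 at 24 × 32 °C, 5 to 5 for the mean of the combinations, 0 to 1 for controls at 24 × 32 °C over 24 × 24 °C, 0 to 2 for LPS larvae of those combinations and 0 for the other comparisons. At 32 × 24 °C the replicate block on the 6 libraries left the count at 0, with edgeR adjusted p-values of 0.0842 for acer1, 0.0505 for elovl1a and 0.0846 for elovl1b. Of 6408 results of single genes under an alternative, 6274 kept their side of the threshold, 58 gained and 76 lost a call, and 0 called genes changed direction. Most of the 6408 were not called in the main fit, so that their staying uncalled says little about the calls. For 201 uncalled results the sign differed. Depth limits cers2a, acer1, cers2b, elovl1a and the ELOVL4 row ENSDARG00000006773, which had single-digit counts in some libraries.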

Other observations

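Ratios between related enzymes were described for 3 pairs chosen after their values were seen, so no test is given. The log2 ratio of the counts of both genes was taken within each library, with 0.5 added to each count, and averaged over the libraries of a group. From control to LPS larvae, the ratio of elovl1a to elovl1b differed by 0.98 on average over the 3 temperature combinations (0.53 to 1.40), that of hsd17b12a to hsd17b12b by 0.95 (0.72 to 1.30) and that of degs2 to degs1 by 0.65 (0.14 to 1.55), each higher after LPS in 3 of 3 combinations.

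From 24 × 24 °C to 24 × 32 °C, averaged over control and LPS larvae, the ratio of hsd17b12a to hsd17b12b was higher by 1.11 (0.82 and 1.40), that of elovl1a to elovl1b differed by -0.57 (-0.77 and -0.36) and that of degs2 to degs1 by -0.57 (-1.21 and 0.06). Reads shared between copies would alter these ratios, which was not tested.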
